A study of Mus musculus with 2 samples.

Results

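Foxp4 sites at the Mir21a locus are the 9 peaks whose nearest start site, in the authors' annotated peak list, is that of Mir21a, together with any other peak whose midpoint lay within 100 kb of the Mir21a hairpin. This added 1 peak, assigned to Vmp1, so that 10 of the 3317 peaks in the list belong to the locus. The list came from chromatin immunoprecipitation followed by sequencing (ChIP-seq) with an antibody against Foxp4, a transcription factor of the forkhead family. Stromal vascular cells from inguinal white fat of C57BL/6 mice, a mixture of fat cell progenitors and other non-adipocyte cells, were cultured for 3 days in 20% serum. They were then induced toward beige adipocytes for 48 h in 10% serum. The inducers were troglitazone (5 µM), the thyroid hormone T3 (50 nM), dexamethasone (1 µM), isobutylmethylxanthine (0.5 mM) and insulin (5 µg/ml). A ChIP library and an input library were made (1 each) from these cells, and the input was not analysed here. There was no replicate, no uninduced culture and no cell without Foxp4, so no value has an error between cultures and read depth is unknown. The members were chosen by the positions of the peaks and the gene named as nearest, and the locus was picked for its many peaks. Its count, spacing and scores are given as a description with no test.

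MicroRNAs are short RNAs cut from a hairpin in a longer primary transcript. They direct Argonaute proteins to messenger RNAs that pair with their seed, the bases near the 5′ end, and so reduce the output of those messengers. Mir21a encodes miR-21, one of the more abundant microRNAs of mesenchymal cells, known for acting on brakes of growth factor signalling such as the Sprouty proteins. In human adipose-derived stem cells miR-21 has been reported to promote adipogenic differentiation through the TGF-beta receptor gene TGFBR2. The hairpin lies at the 3′ end of Vmp1, and in human the primary transcript can start from a promoter of its own inside a late intron of that host gene.

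The RefSeq hairpin of Mir21a spans chr11:86584067-86584158 on the minus strand (GRCm38.p6, the assembly behind mm10). It is shown because positions upstream and downstream of Mir21a are measured from its 5′ end, the Mir21a start. Both mature arms are in capitals.
Mir21a hairpin: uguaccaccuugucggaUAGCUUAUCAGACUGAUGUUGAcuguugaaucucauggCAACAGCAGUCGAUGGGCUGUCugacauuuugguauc
The mature RNAs of the miR-21 family are shown with the seed (bases 2 to 8) in capitals, since RNAs with the same seed tend to pair with the same messengers.
miR-21a-5p: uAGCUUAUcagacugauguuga
miR-21a-3p: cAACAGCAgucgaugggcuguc
miR-21c: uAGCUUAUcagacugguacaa
miR-21b: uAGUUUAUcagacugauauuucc
Of 1738 mature mouse microRNAs in the RefSeq table, 2 carried the seed of miR-21a-5p, namely miR-21a-5p itself and miR-21c. Counted from the 5′ end of miR-21a-5p, miR-21c differed by A16G, G18A, U19C, U20A and G21A, all outside the seed. In miR-21b the change C4U falls within the seed, beside G18A, G21U and A22C. Mir21a, which was picked for its many peaks, had 10 within 100 kb, and neither Mir21c nor Mir21b had any. Having none was usual, since 268 of 1228 microRNA genes (21.8%) had a peak that close. The peak closest to Mir21c lay 207 kb away, and the 2 peaks assigned to Mir21c, with scores of 32 and 109, were farther off. For Mir21b the closest was 243 kb away and was assigned to another gene.

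The 10 sites surrounded the hairpin on both sides, and the strongest lay just beyond its 3′ end. In the direction of transcription, 6 peaks lay upstream of the Mir21a start and 4 downstream. The value given for each is the authors' peak score, a whole number whose scale is not stated. It ranges from 13 to 2569 over the list, with a median of 65. None of the peaks overlapped the hairpin.

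**Figure D1:**
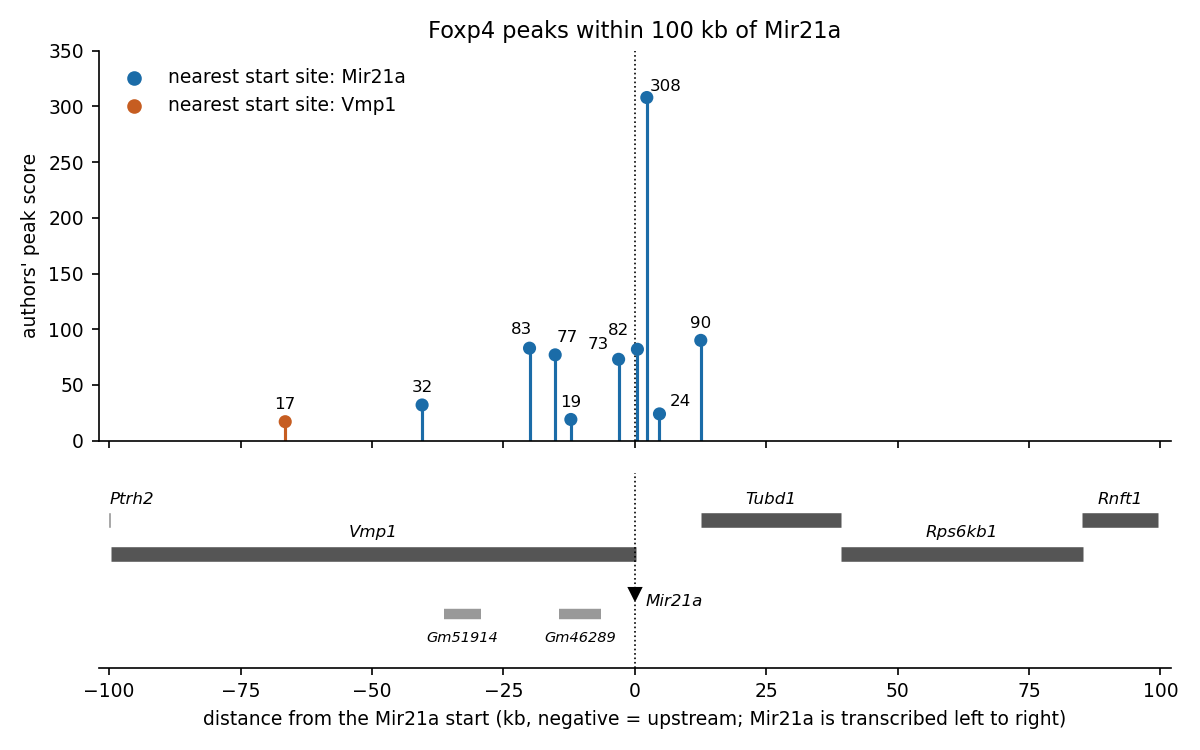
Authors' score of each of the 10 Foxp4 peaks (upper panel) and the protein-coding genes, long non-coding RNAs and Mir21a (lower panel) against the distance from the Mir21a start in kb. Orange marks the peak assigned to Vmp1, and a pseudogene inside Vmp1 is not drawn. The peak of score 308 stands 2.29 kb downstream of the start, 8 of the 10 peaks lie within 25 kb of it, and the peaks end at the 3′ edge of Tubd1.

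The peaks nearest to the hairpin made up its densest part. Within 5 kb of the start lay 4 peaks, 1 upstream and 3 downstream. The closest (chr11:86583458-86583847, 390 bp, score 82) was separated from the hairpin by 219 bases. The file annotates it as the transcription end of Mir21a. It stopped 10 bases short of the 3′ end of Vmp1 as the RefSeq table delimits that gene, so it lay just outside both. The next one downstream (chr11:86581508-86582225, 718 bp) had the score of 308, the highest at the locus. Its midpoint was 2.29 kb from the start, in sequence that the file calls intergenic. This score ranked 128 in the whole list, 13 among the 195 peaks of chromosome 11 and 3 among the 118 peaks whose nearest gene is a microRNA gene. The third (chr11:86579020-86579892, score 24) was 4.70 kb downstream. It was broad for its score, at 873 bp. The 113 peaks of the list that were 800 bp or wider had a median score of 110 and a lowest score of 19. Of these, 38 scored under 80.

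On the upstream side the closest peak was also the widest of the locus. It covered 1068 bp (chr11:86586700-86587767, score 73) in intron 10 of Vmp1, with its midpoint 3.08 kb before the Mir21a start. Only 0.633% of all peaks were this wide or wider. Intron 10 is counted on the Vmp1 transcript used in the file, which has 11 introns. It held 2 further peaks. A peak of score 19 lay 12.2 kb upstream (chr11:86596060-86596575), inside the long non-coding RNA gene Gm46289 that is nested in the intron. A peak of score 77 lay 15.1 kb upstream (chr11:86599148-86599448) on a simple repeat of the unit CAA. Sites farther from the hairpin were sparser. The peak in intron 9 (chr11:86603838-86604521, score 83), 20.0 kb upstream, was annotated to a B1 element, a short interspersed repeat. Beyond it came a peak in intron 7 at 40.5 kb (chr11:86624364-86624877, score 32) and 1 in intron 5 at 66.5 kb (chr11:86650504-86650822, score 17). The last is the peak that the file assigns to Vmp1, 20.6 kb from an internal start site of that gene. It had the lowest score at the locus, and 98.1% of the list scored as high or higher. In all, 2 of the 10 peaks carried a repeat annotation, against 23.3% of the list.

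The remaining downstream peak marked the far edge of the group. It lay 12.6 kb from the Mir21a start (chr11:86571381-86571814) and its score of 90 was the second highest. The file calls it intergenic. In the RefSeq table its midpoint falls inside Tubd1, the gene of delta-tubulin, a centriole protein, within the last bases before the 3′ end of that gene at 86571608.

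Scores at the locus were mixed rather than uniformly high. The 10 values were 17, 32, 83, 77, 19, 73, 82, 308, 24 and 90 in the direction of transcription. They comprised 4 scores under 35, 5 between 70 and 95, and the 308. Their median was 75, against 65 for the other 3307 peaks, whose quartiles were 41 and 104. At or above the median of the list were 6 of the 10, where 50.1% of all peaks are. Without the highest peak the median of the locus was 73, so the locus stood near the middle of the list in score. The peaks were somewhat wide, with a median of 515 bp against 393 bp for the other peaks, and 7 of the 10 were wider than that 393 bp.

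**Figure D2:**
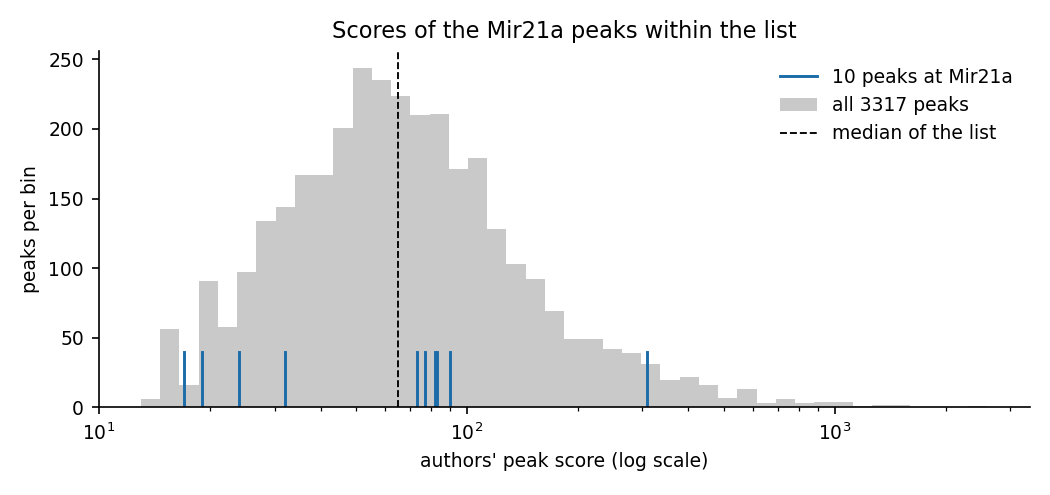
Number of peaks per score bin over all 3317 peaks (grey, logarithmic score axis), with the 10 peaks at Mir21a as blue lines and the list median of 65 as a dashed line. The blue lines fall in a low group of 4, a middle group of 5 just above the median, and the 308.

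The peaks of the locus were closely spaced. The 9 distances between neighbouring midpoints were 26.0, 20.4, 4.88, 2.98, 9.08, 3.58, 1.79, 2.41 and 7.86 kb in the direction of transcription, with a median of 4.88 kb. Over the 3296 neighbouring pairs of the whole list the median was 293 kb, and over the 194 pairs of chromosome 11 it was 264 kb. Closer than 10 kb were 7 of the 9 pairs at the locus, where 6.22% of all pairs are. The 5817 bases under the 10 peaks made up 2.91% of the window of 200.1 kb. At the density of chromosome 11 as a whole, 1.60 peaks per Mb of annotated span, a window of that length would hold 0.320 peaks. These contrasts in spacing and density follow in part from picking a locus with many peaks in a short window.

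When peaks with midpoints up to 10 kb apart were joined into runs, 8 of the 10 formed a run of 33.1 kb, from the 3′ edge of Tubd1 to intron 9 of Vmp1. This was the longest run in the list by number of peaks. The others comprised 17 runs of 3 peaks, the longest of them 18.9 kb, 164 pairs and 2930 peaks that stood alone. With a limit of 20 kb the run at Mir21a still held 8 peaks. With a limit of 5 kb it held 4, and no other run in the list was as large. The limit was chosen after the positions were seen.

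**Figure D3:**
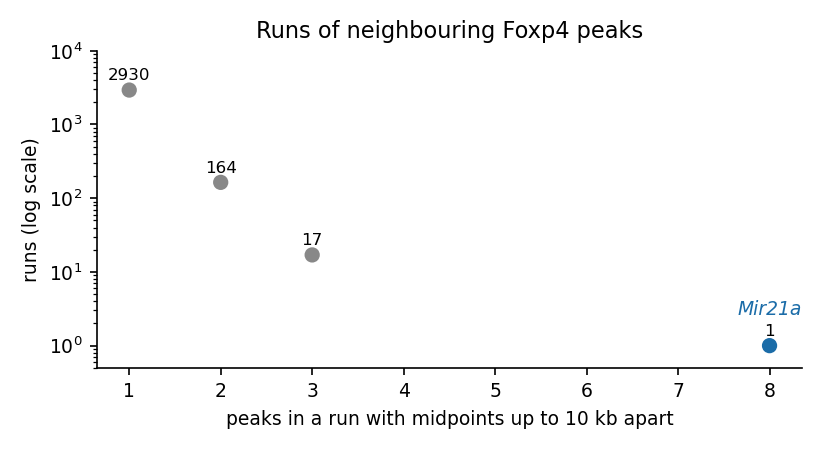
Number of runs in the whole list (logarithmic axis) against the number of peaks in a run, where neighbouring midpoints are up to 10 kb apart. The run of 8 peaks at Mir21a (blue) is followed by the 17 runs of 3.

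The group was bounded by empty sequence on both sides. Upstream, the next peak was 107 kb from the last member and 174 kb from the Mir21a start. It lay on the promoter of Cltc, which encodes the clathrin heavy chain (chr11:86757491-86758206, score 123, 281 bp from the start site named in the file). Of all neighbouring pairs in the list, 69.1% were at least this far apart. Downstream, the next peak was assigned to the deubiquitinase gene Usp32 (score 147) and lay 1419 kb from the nearest member, a distance reached by 14.5% of pairs.

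Among protein-coding genes, Vmp1 held most of the sites. Vmp1 is a membrane protein of the endoplasmic reticulum needed for autophagosome formation. Its gene (chr11:86583858-86683836, 99979 bases) contained 6 of the 10 midpoints, with scores from 17 to 83. A further 3 peaks lay in no protein-coding gene and 1 in Tubd1. By distance to gene bodies rather than to start sites, 9 peaks had Vmp1 nearest and none had Mir21a, since the hairpin is set inside the host gene. The 9 assignments to Mir21a therefore reflect the start site used in the file, and the positions alone do not tell the 2 genes apart. At least 6 peaks inside the gene body were found for 7 protein-coding genes, 0.032% of 21887. Vmp1 was the shortest of these, and the other 6 were between 324 and 1302 kb long.

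No peak lay at a RefSeq promoter of Vmp1. RefSeq gives 3 promoter windows for the gene, each from 250 bases before a start to 50 after it, and none overlapped a peak. From the outermost start the closest peak was 33.2 kb away (score 17). The same peak was closest to the other starts, at 32.9 and 20.5 kb. The other protein-coding genes of the window were also without a promoter peak. Rps6kb1, which encodes the S6 kinase downstream of mTORC1, had its closest peak 26.7 kb from the gene, and Ptrh2, a mitochondrial peptidyl-tRNA hydrolase gene, at 33.4 kb. Rnft1, a gene of a RING finger membrane protein, had its closest peak at 72.6 kb. No peak of the list was assigned to any of these 3 genes or to Tubd1.

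Of the protein-coding promoter windows examined here, only that of Cltc lay under a Foxp4 peak, outside the 100 kb window. Start sites of Mir21a and Gm46289 were not among them, so a peak at a promoter of their own was not tested. The RefSeq promoter window of Cltc, of 300 bases, was covered whole by the peak. The 250 bases before the start of Cltc and those before the outermost start of Vmp1 are shown to set a promoter with a peak beside one without, both on the minus strand of GRCm38.p6, with CpG dinucleotides in capitals.
Cltc promoter, with a peak, chr11:86757568-86757817: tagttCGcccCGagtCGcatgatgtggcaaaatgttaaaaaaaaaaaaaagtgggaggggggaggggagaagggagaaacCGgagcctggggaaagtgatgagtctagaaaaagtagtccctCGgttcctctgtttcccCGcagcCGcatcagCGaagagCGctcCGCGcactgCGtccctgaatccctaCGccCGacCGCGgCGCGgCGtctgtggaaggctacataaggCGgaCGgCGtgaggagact
Vmp1 promoter, without a peak, chr11:86683837-86684086: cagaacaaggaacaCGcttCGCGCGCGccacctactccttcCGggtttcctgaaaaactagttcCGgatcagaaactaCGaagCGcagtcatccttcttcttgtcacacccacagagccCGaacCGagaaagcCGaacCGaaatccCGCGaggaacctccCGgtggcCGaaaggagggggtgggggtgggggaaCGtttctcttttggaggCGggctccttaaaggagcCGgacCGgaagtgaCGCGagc
The sequences were alike in composition, with 22 CpG dinucleotides and 58.0% G and C at Cltc, and 23 and 59.2% at Vmp1. Over all 32851 promoter windows the medians of the 250 bases were 6 and 52.4%. A search on both strands used 4 forkhead-type words. TGTTTAC occurs in 3.65% of all promoter windows of 300 bases. TGTTTAT is found in 4.60% of them. TATTTAC is present in 3.04%, and 3.63% hold TATTTGT. At least 1 of the words was found in 13.4% of the windows. None was found in the window of Cltc, the 3 windows of Vmp1 or those of Tubd1, Rps6kb1 and Ptrh2. The sequence under the 10 member peaks was not analysed here.

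The number of peaks within 100 kb was higher at Mir21a than at any other microRNA gene of the table. At least 1 peak within 100 kb was found for 268 of 1228 microRNA genes (21.8%), and at least 10 for Mir21a alone (0.0814%). Mir3092 and Mir704 followed with 5 each. Within 5 kb, Mir21a had 4 peaks, 24 other microRNA genes had 1 and none had more. A peak within 1 kb was present at 8 of the 1228. Mir21a was thus the nearest gene of 7.63% of the 118 peaks assigned to microRNA genes, which were spread over 80 genes. The median distance of its 9 peaks to the start was 12.2 kb, against 33.7 kb for the other 109. Their median score was 77, against 70.

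**Figure D4:**
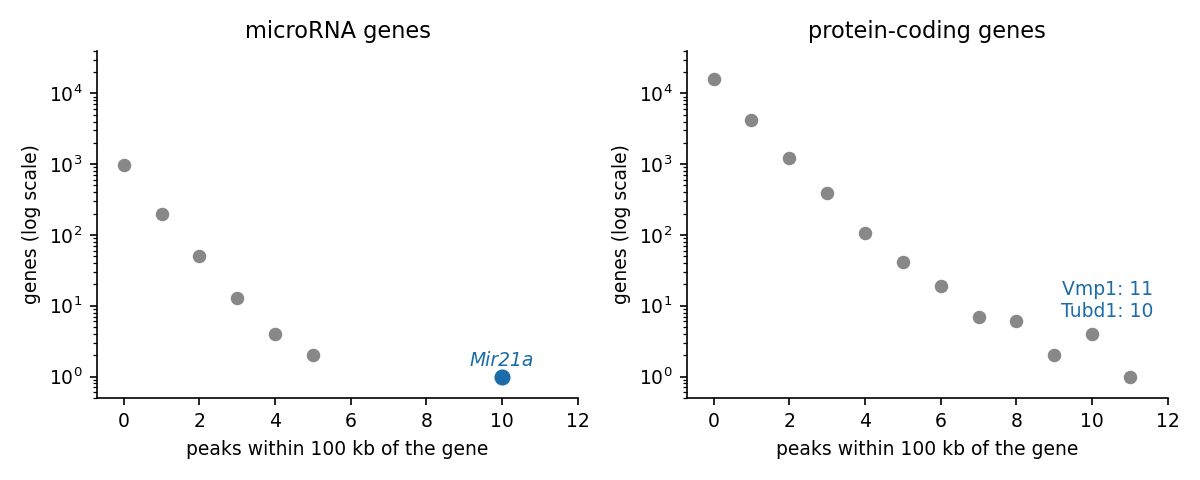
Number of genes (logarithmic axis) against the number of peaks within 100 kb of the gene, for 1228 microRNA genes (left) and 21887 protein-coding genes (right). Mir21a has 10 peaks and every other microRNA gene 5 or fewer, and the highest protein-coding count of 11 is that of its host Vmp1.

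Among protein-coding genes, at least 10 peaks within 100 kb were found for 5 of 21887 (0.0228%). The highest count, 11, was that of Vmp1 and the next, 10, was shared by Tubd1, Lrmda, Gm40363 and Gm40364, so 2 of the 5 are neighbours of Mir21a that count the same peaks. Lrmda is 1037 kb long, which widens its window. Gm40363 and Gm40364 lie beside each other on chromosome 6, near the peaks assigned to Rn4.5s described next.

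Only 5 of 2462 nearest genes (0.203%) were named by 9 or more peaks. They were Mir21a with 9, Marcks with 10, and Adamts5, Pik3r1 and Rn4.5s with 9 each. The peaks of Mir21a were the most compact. They spanned 53.5 kb with a median spacing of 4.23 kb. Those of Marcks, a gene of an actin-binding kinase substrate, spanned 418 kb with a median spacing of 22.3 kb. Those of Adamts5, an aggrecan-cleaving protease gene, spanned 460 kb, with a median spacing of 49.0 kb. Those of Pik3r1, the gene of a regulatory subunit of PI3-kinase, spanned 582 kb, with a median spacing of 79.3 kb. Rn4.5s, a small RNA gene, came closest to Mir21a, with a span of 125 kb and a median spacing of 9.56 kb. The distances in the file place its peaks at 6 start sites of that name. How reads with several alignments were counted is not stated.

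**Figure D5:**
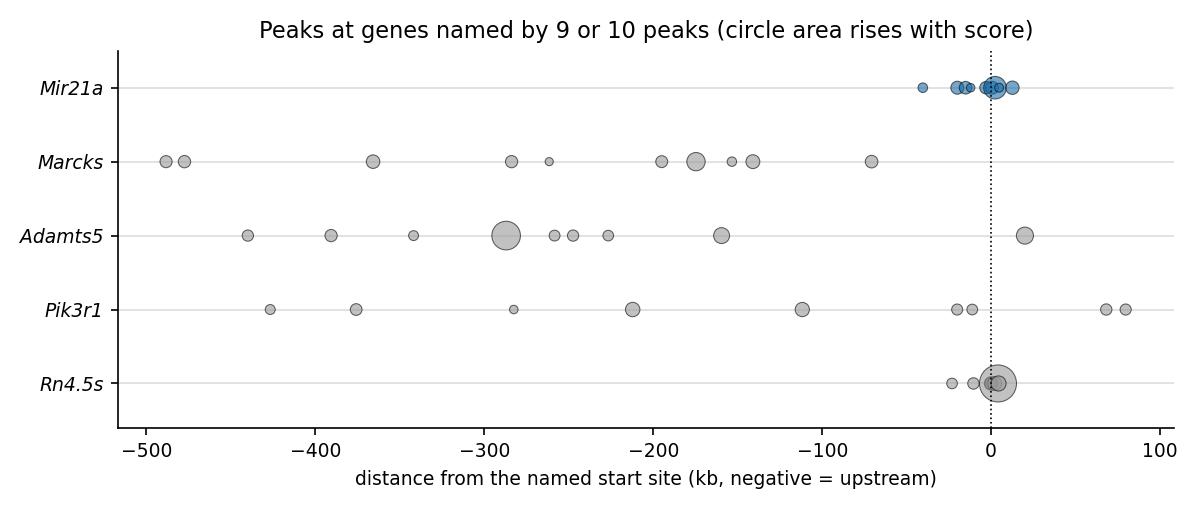
Distance in kb of each peak from the start site named in the file for the 5 genes named by 9 or 10 peaks, with circle area rising with the authors' score. The Mir21a peaks (blue) lie between 40.5 kb upstream and 12.6 kb downstream, while those of Marcks, Adamts5 and Pik3r1 reach more than 400 kb upstream, and the distances refer to 6 start sites for Rn4.5s and 2 for Pik3r1.

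The scores of these groups overlapped widely. Mir21a scores ran from 19 to 308, those of Marcks from 15 to 193, those of Adamts5 from 36 to 511, those of Pik3r1 from 19 to 109 and those of Rn4.5s from 20 to 875. Medians were 77 at Mir21a, 71 at Marcks, 55 at Adamts5, 53 at Pik3r1 and 71 at Rn4.5s. At or above the median of the list were 6 of 9 peaks at Mir21a, 8 of 10 at Marcks, 4 of 9 at Adamts5, 2 of 9 at Pik3r1 and 5 of 9 at Rn4.5s. Within 3 kb of the start site were 2 peaks at Mir21a, 5 at Rn4.5s (counted over its 6 start sites) and none at Marcks, Adamts5 or Pik3r1.

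Sites were also present at some genes on which miR-21 acts. The share of all protein-coding genes that were nearest to at least 1 peak was 9.11% of 21887. Of 23 reported direct targets of miR-21, 9 had a peak. Besides Marcks (10 peaks, highest score 193), Jag1, a Notch ligand gene, had a peak of score 163 at a distance of 386 kb. Spry1 and Spry2 encode Sprouty inhibitors of receptor tyrosine kinase signalling. Spry1 had a peak of score 159 at 7.32 kb upstream, and Spry2 had 4 peaks, the highest (49) on its promoter at 600 bp upstream. Rhob, a small GTPase gene, had a peak of score 104 at 66.9 kb. Tgfbr2, the type 2 receptor of TGF-beta, had 2 peaks, the higher (72) in intron 1. The other 3 were Peli1, Tpm1 and Nfib. Pdcd4, a translation inhibitor, was among those with no peak assigned. When gene bodies with 20 kb on each side were used instead, 10 of the 23 had a peak, where 11.1% of protein-coding genes had one. These were partly other genes. Reck, Smad7, Cdc25a and Tiam1 were counted only in this way. Jag1, Rhob and Marcks, whose closest peak was 70.8 kb from its start, were counted only by nearest start site. When only peaks at or above the median score were kept, 5 of the 23 had one assigned, where 5.14% of protein-coding genes did.

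Of 18 factors reported to control transcription of the miR-21 gene, 8 had a peak by nearest start site, where 9.11% of protein-coding genes had one. The highest score was 319 at Foxo3, a forkhead factor of insulin signalling with 4 peaks. Esr1, the oestrogen receptor gene, reached 285, and the NF-kappaB subunit gene Nfkb1 had 1 peak of score 112. Fos, an AP-1 subunit gene, had a peak of score 85 at 18.4 kb, and the promoter of Stat3, which carries cytokine signals, had 1 of score 68. Smad2 and Nfib were also among the 8, and Nfib is in both lists.

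Genes of the microRNA machinery had no peak assigned. Of 13 genes of microRNA processing, among them Drosha, Dgcr8, Dicer1 and Ago2, 0 had a peak assigned, a count that allows a share of up to 23.1%, where 9.11% of protein-coding genes had one. Ago2 had a peak within 20 kb of the gene that was assigned to another gene. It was the only 1 of the 13 by that rule, which 11.1% of protein-coding genes met. Of 22 genes of autophagosome formation, the process in which Vmp1 acts, 5 had a peak, against the same 9.11%. With peaks at or above the median score only, 2 of the 22 had one, where 5.14% of protein-coding genes did. Becn1, a subunit of the autophagy lipid kinase complex, had a promoter peak of score 427 at 188 bp upstream, and Map1lc3b, a coat protein of autophagosomes, had 1 of score 210 at 5.06 kb upstream. Ulk1 (28), Vmp1 (17) and Map1lc3a (15) had low scores. The Vmp1 peak is the locus member in intron 5, which was chosen by its position. Vmp1 is nevertheless counted among the 5 genes, so that count was set in part by the choice of the locus. None of the lists was tested against the rest of the genome.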

How the data were processed

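ChIP-seq peaks of 1 Foxp4 library were read from the table that the authors deposited. Per the file headers, it holds peaks of a narrowPeak file on mm10, annotated with HOMER's annotatePeaks.pl. The submitters' processing notes name Bowtie2, Picard, SAMtools, MACS2 and deepTools 3.3.0, without roles or settings. How the input entered the calls is not stated there. The deposited score is a whole number of unstated scale, used only to rank and describe peaks. The signed distance to the start site is also as deposited.

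All 3317 peaks were kept and 1 line without a peak was left out. Genes came from a RefSeq table of GRCm38.p6, the assembly behind mm10, and a peak's place is its midpoint. Medians, spacing, runs and windows were computed with Python 3.11.15, pandas 2.3.3 and numpy 2.4.6, and the counting code was checked on simulated positions. Shares cover 1 library, whose depth is unknown. The limit on a count of 0 is 3 counts of the total and covers counting error only.

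Members and lists were chosen with earlier results of these data known. The rule named all genes and peaks within 100 kb, the next peak on each side and up to 6 members per list. Other genes (Mir21b, Mir21c, Mir3092, Mir704, Lrmda, Gm40363, Gm40364, Marcks, Adamts5, Pik3r1, Rn4.5s, further list members) were named after their values were seen. Alternatives covered score limits, window size, overlap and gene assignment. Some results for list members are not reported here.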

Additional observations from a re-analysis of the deposited data

How the results depend on the processing

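Of 44 values recomputed under other settings, 33 stayed within set limits and 11 moved. The limits were 1.5 times the count reported, or the 95% binomial interval of a median. The tally does not measure stability, since some of the 33 could hardly move. No setting under which the highest score was recomputed could remove that peak. The intervals were wide, from 19 to 90 for the median score and from 2.41 to 20.4 kb for the median spacing. They also treat the peaks of 1 library as independent. Keeping only peaks at or above the median score left 6 peaks within 100 kb, 3 of them inside Vmp1, and lowered the lists to 5 miR-21 targets and 2 autophagosome genes. MicroRNA and protein-coding genes with as many peaks in the window, Mir21a included, numbered 6 as reported. They were 12 with a score of at least 30, 3 in a window of 50 kb and 11 in one of 200 kb. By nearest gene body, 0 peaks had Mir21a nearest, both among all genes and among protein-coding genes, as follows from the hairpin lying inside Vmp1. With gene bodies and 20 kb on each side, 1 of 13 genes of microRNA processing had a peak, where 11.1% of protein-coding genes had one. The run at Mir21a held 4 peaks with a limit of 5 kb, an alternative chosen after seeing the data. No paired analysis was possible because the series held 1 ChIP library. Without replicates or depth, none of these values says how the peaks would vary between cultures.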
